A study of Mus musculus with 8 samples.

Results

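The genes described are 10 markers of tissue macrophages, chosen by symbol as genes of macrophage identity and complement: *Csf1r*, *C1qa*, *C1qb*, *C1qc*, *Adgre1*, *Mrc1*, *F13a1*, *Lyz2*, *Cx3cr1* and *Fcer1g*. All 10 were present among the 25239 gene symbols counted in each library, and all 10 were among the 14249 genes that passed the filter on low counts and were tested. The rule uses the symbols alone, but the genes were chosen with earlier results of these data known. RNA-Seq had been performed on whole fetal ovaries of C57BL/6 mice at E14.5, from 4 control and 4 *Bmpr1a*-cKO libraries, each a pool of 2 ovary pairs. Controls were *Bmpr1a* fl/fl and carried no Cre, and cKO embryos were *Bmpr1a* fl/fl; Oct4-Cre Cre/WT, so both genotypes carried the floxed allele. Every dam had been given 4-hydroxytamoxifen (1 mg) with progesterone (0.5 mg) on 3 days, first at 9.5 dpc and last at 11.5 dpc, so drug exposure was common to both groups, whereas the Cre was not. This inducible Cre is driven by Oct4 (*Pou5f1*) sequences and is meant to remove the BMP receptor from germ cells. Macrophages were therefore not its intended target, and the ovaries were not sorted. The 8 embryos of each genotype came from 6 litters in all, and the litter of a library was not stated. The labels do not say whether each pool holds different dams, so p-values measure the spread between these pools. The question put to the data was whether macrophage transcripts differed in ovaries whose germ cells were to lose BMPR1A.

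Macrophages enter the fetal ovary from yolk sac and fetal liver progenitors and take up dying cells there. They depend on CSF1R, the receptor tyrosine kinase for the ligands CSF1 and IL34. In many tissues they are the main source of C1q, the recognition molecule of the classical complement pathway, which is assembled from A, B and C chains encoded by *C1qa*, *C1qb* and *C1qc*. ADGRE1 is the F4/80 antigen, MRC1 is the mannose receptor CD206, and *F13a1* encodes the A subunit of coagulation factor XIII. LYZ2 is a lysozyme shared with granulocytes, CX3CR1 is the fractalkine receptor, and FCER1G is the common gamma chain that carries the signalling motif of several Fc receptors and is also found in mast cells.

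The libraries held 8562961 to 15365052 counts, and 3 counts, taken as the floor of detection, corresponded to 0.189 to 0.358 CPM (counts scaled to a common library size). The macrophage genes had 9 to 256 counts per library, so all were detected in every library but at low depth, and *Fcer1g* and *F13a1* were the most sparsely counted. Markers of germ cells and of pregranulosa cells were abundant in all 8 libraries. *Bmpr1a* itself was at 218 ± 15.3 CPM (SD, n = 4) in control and 195 ± 10.5 CPM in cKO ovaries and overlapped between genotypes (FDR = 0.0692 by edgeR). Counts of the whole gene in the whole ovary, where somatic cells retain the receptor, do not measure its deletion in germ cells. The paper reported that BMPR1A immunostaining was lost from germ cells but not from somatic cells. It also reported significantly lower *Bmpr1a* in cKO ovaries by qRT-PCR. The levels are of whole-ovary RNA: more macrophages and more RNA of a gene per macrophage cannot be told apart. Transcripts of hepatocytes stood apart in the cKO libraries 1 and 3, with a summed level of 16.6 and 34.1 CPM over 7 markers against 1.4 to 5.87 CPM in the other libraries, and results are therefore also given without those libraries where that changed a call.

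The C1q genes lie side by side on the minus strand of chromosome 4 (mm10), in the order *C1qb*, *C1qc*, *C1qa*, within chr4:136880129-136898803. The span is 18.7 kb and holds no other annotated gene. The RefSeq promoter windows of *C1qb* (chr4:136886151-136886450, minus strand) and *C1qc* (chr4:136892865-136893164, minus strand), whose genes were called higher in cKO ovaries, are shown with that of *Mrc1* (chr2:14229164-14229463, plus strand), which was not called. Each runs 5′ to 3′ on the strand of its gene, from 250 bases before to 50 bases after the start, on GRCm38.p6. Capitals mark GAGGAA, the core bound by the macrophage ETS factor PU.1, and TGCTGA, a motif of MAF factors, on either strand.
C1qb: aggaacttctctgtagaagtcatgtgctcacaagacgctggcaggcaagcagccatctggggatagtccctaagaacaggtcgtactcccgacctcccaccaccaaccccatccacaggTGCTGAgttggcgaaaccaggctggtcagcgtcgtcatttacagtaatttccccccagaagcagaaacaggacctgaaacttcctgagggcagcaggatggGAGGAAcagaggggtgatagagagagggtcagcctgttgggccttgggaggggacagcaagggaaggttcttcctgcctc
C1qc: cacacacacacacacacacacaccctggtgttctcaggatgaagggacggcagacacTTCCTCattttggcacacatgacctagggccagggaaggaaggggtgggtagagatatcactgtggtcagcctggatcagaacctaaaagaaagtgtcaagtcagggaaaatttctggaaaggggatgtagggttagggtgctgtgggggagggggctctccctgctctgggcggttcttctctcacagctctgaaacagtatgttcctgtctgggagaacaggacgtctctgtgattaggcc
Mrc1: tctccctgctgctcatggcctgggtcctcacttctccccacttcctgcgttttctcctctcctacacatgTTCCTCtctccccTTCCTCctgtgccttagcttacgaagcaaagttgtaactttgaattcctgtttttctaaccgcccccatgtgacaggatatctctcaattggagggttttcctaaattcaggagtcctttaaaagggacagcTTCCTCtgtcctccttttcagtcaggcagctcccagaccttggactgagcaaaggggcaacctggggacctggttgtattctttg

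*C1qb* held GAGGAA from position -30 and TGCTGA from position -131 relative to the start, *C1qc* held GAGGAA at -193, and *Mrc1* held it at -180, -167 and -35. Thus the called and the uncalled genes shown shared the ETS core. Promoter windows were read for 7 of the 10 genes, 8 windows in all. None was read for *C1qa* or *Adgre1*, which were also called, and windows on chromosome 18, where *Csf1r* lies, were not searched. Of the 7 genes, 4 held GAGGAA and 2 held TGCTGA. Among 32544 windows of this length 28.1% and 19.5% held them, which is a share per window and not per gene. No window of these genes held the C/EBP palindrome TTGCGCAA, found in 0.184% of all windows, or TATAAA, found in 13.6%. The letters overlap no other searched motif in the sequences shown, and a match is a description of the letters and not a binding site.

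With edgeR's quasi-likelihood test, 4 of the 10 macrophage genes rose in *Bmpr1a*-cKO ovaries and none fell, where a call required an absolute log2 fold change (log2FC, cKO over control) above 0.5 and an FDR below 0.05. Of all genes tested, 10.2% were called, 6.11% higher and 4.06% lower. The 4 were *C1qa*, *C1qb*, *C1qc* and *Adgre1*, with changes of 1.61- to 1.85-fold. The C1q genes are neighbours that encode chains of the same molecule, so their calls need not be separate observations. *Csf1r* met the FDR but not the fold threshold, so 5 of 10 had an FDR below 0.05 with a higher level, against 17.3% of all genes. All 4 cKO libraries lay above all 4 control libraries for *C1qc*, *Adgre1* and *Csf1r*, which was so for 16.1% of all genes. The median log2FC of the 10 genes was 0.44, against -0.004 over all genes tested, and 8 of the 10 values were positive.

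**Figure D1:**
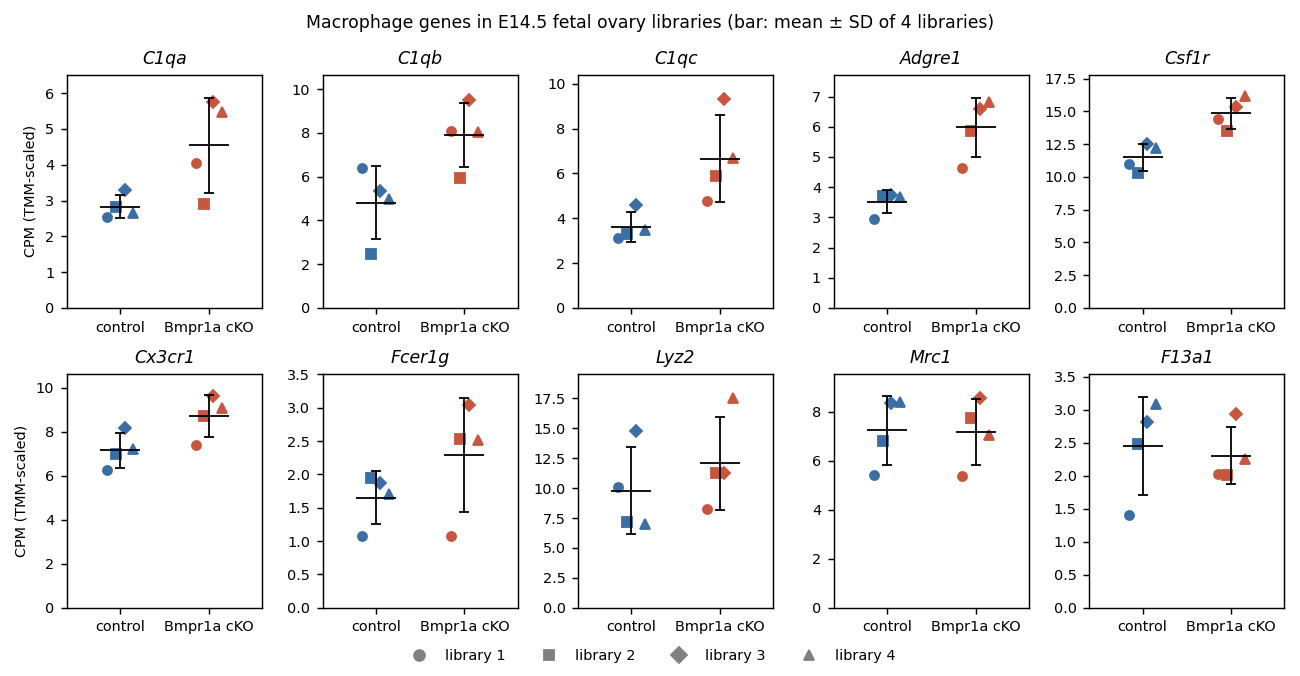
CPM (y axis of each panel, from 0) of the 10 macrophage genes in the 4 control and 4 *Bmpr1a*-cKO libraries. Each point is a library and the bar with its error is the mean ± SD of 4 libraries. All cKO points of *C1qc*, *Adgre1* and *Csf1r* lie above all control points, and those of the other 7 genes overlap.

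*C1qc* (chr4:136889804-136893065), which encodes the C chain, had the largest change of the 10. Its level was 3.12, 3.28, 4.59 and 3.47 CPM in controls 1 to 4, and 4.77, 5.87, 9.32 and 6.69 CPM in cKO libraries 1 to 4. The lowest cKO library was just above the highest control, and the highest value was that of cKO library 3. The log2FC was 0.89 (SE 0.201, FDR = 0.00383 by edgeR), or 1.85-fold with a 95% interval of 1.37 to 2.49.

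*C1qb* (chr4:136880129-136886187), the B chain gene, was measured at 6.41, 2.48, 5.34 and 4.99 CPM in controls and at 8.11, 5.95, 9.53 and 8.05 CPM in cKO libraries. The groups overlapped in that control 1 exceeded cKO library 2, and control 2 was the lowest of all. The increase was 1.62-fold (log2FC 0.70, SE 0.22, FDR = 0.0257 by edgeR).

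*C1qa* (chr4:136895917-136898803), the A chain gene, stood at 2.55, 2.83, 3.28 and 2.65 CPM in controls and 4.05, 2.9, 5.76 and 5.46 CPM in cKO libraries. Control 3 lay above cKO library 2, and the other 3 cKO libraries lay above every control. It rose 1.61-fold (log2FC 0.69, SE 0.218, FDR = 0.0271 by edgeR).

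The calls of *C1qa* and *C1qb* each rested on single libraries. Without control 4, cKO library 3 or cKO library 4, both had an FDR above 0.05, and 2 of the 10 genes were then called (*C1qc* and *Adgre1*). *C1qa* was also lost without control 1 (FDR = 0.0702 by edgeR), and *C1qb* without control 2, where its log2FC was 0.49. Without the cKO libraries 1 and 3 together, which held the hepatocyte transcripts, *C1qa* had a log2FC of 0.56 (FDR = 0.114 by edgeR) and *C1qb* of 0.52 (FDR = 0.152 by edgeR), while *C1qc* and *Adgre1* were still called.

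*C1qa* to *C1qc* was 0.79 ± 0.0651 (SD, n = 4) in control and 0.694 ± 0.169 in cKO libraries, as a ratio of CPM, and *C1qb* to *C1qc* was 1.35 ± 0.544 and 1.23 ± 0.322. The ratios between the chains thus overlapped between genotypes.

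*Adgre1* (chr17:57358691-57483527), the F4/80 gene, was at 2.96, 3.72, 3.75 and 3.66 CPM in controls and at 4.65, 5.87, 6.59 and 6.82 CPM in cKO libraries. Control 1 was the lowest library and controls 2 to 4 were close together, all below the lowest cKO library. The gene rose 1.71-fold (95% interval 1.35 to 2.18, log2FC 0.78, SE 0.164, FDR = 0.00227 by edgeR). It had the smallest FDR of the 10 genes, and its call held in each of the 8 fits that left out a library.

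*Csf1r* (chr18:61100598-61132149), whose product is the receptor on which these cells depend, was at 11, 10.3, 12.5 and 12.2 CPM in controls and 14.4, 13.5, 15.3 and 16.2 CPM in cKO libraries. The groups did not overlap, and the spread within each was the smallest of the 10 genes, with an SD of 8.99% of the mean in control and 7.99% in cKO libraries. The difference was 1.29-fold (95% interval 1.11 to 1.5, log2FC 0.37, SE 0.103, FDR = 0.0142 by edgeR), below the fold threshold. Its FDR was 0.0633 without cKO library 4. Exons of the annotated gene overlap those of *Hmgxb3* on the opposite strand.

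*Mrc1* (chr2:14229392-14332057), the mannose receptor gene, had 5.43, 6.82, 8.34 and 8.39 CPM in controls and 5.37, 7.73, 8.58 and 7.03 CPM in cKO libraries. The ranges were almost the same. The log2FC was -0.01 (SE 0.167, FDR = 0.976 by edgeR), and the 95% interval of the fold, 0.776 to 1.27, did not reach the point estimates of the 4 called genes.

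*F13a1* (chr13:36867178-37050244), the factor XIII gene, was measured at 1.4, 2.48, 2.81 and 3.09 CPM in controls and 2.03, 2.01, 2.93 and 2.25 CPM in cKO libraries. The cKO values lay within the control range. Its fold was 0.93 (95% interval 0.647 to 1.34, FDR = 0.788 by edgeR), and its exons overlap those of *Gm30489* on the opposite strand.

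*Cx3cr1* (chr9:119901616-120069879), the fractalkine receptor gene, ranged from 6.25, 7.0, 8.15 and 7.19 CPM in controls to 7.39, 8.7, 9.63 and 9.07 CPM in cKO libraries. Only control 3 lay above the lowest cKO library. The log2FC of 0.29 (SE 0.128, FDR = 0.102 by edgeR) did not pass the test. The annotated gene spans several others and shares exon sequence with *Gm33858* on the opposite strand.

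*Fcer1g* (chr1:171229572-171234365), the common gamma chain gene, was at 1.07, 1.95, 1.87 and 1.7 CPM in controls and 1.07, 2.53, 3.04 and 2.52 CPM in cKO libraries. The first library of each genotype was lowest, and the other 3 cKO libraries lay above every control. The log2FC was 0.51 (SE 0.28, FDR = 0.192 by edgeR). Without cKO library 1 it was 0.70 and the gene was called (FDR = 0.0341 by edgeR).

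*Lyz2* (chr10:117277331-117282321), the lysozyme gene, had 10.1, 7.17, 14.8 and 7.01 CPM in controls and 8.23, 11.3, 11.3 and 17.5 CPM in cKO libraries. It varied most among the controls, with an SD of 37.3% of the mean, and the groups overlapped. The log2FC was 0.36 (SE 0.234, FDR = 0.281 by edgeR), and without control 3 it was 0.61 (FDR = 0.0479 by edgeR). Granulocyte markers varied as well, from 4.8 to 44.6 CPM in summed level among controls and from 11.1 to 38.4 CPM in cKO libraries, with control 3 highest and control 4 lowest. Their part in the *Lyz2* level was not tested. Its near-identical copy *Lyz1* had 1 count in all 8 libraries together, against 1058 for *Lyz2*.

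**Figure D2:**
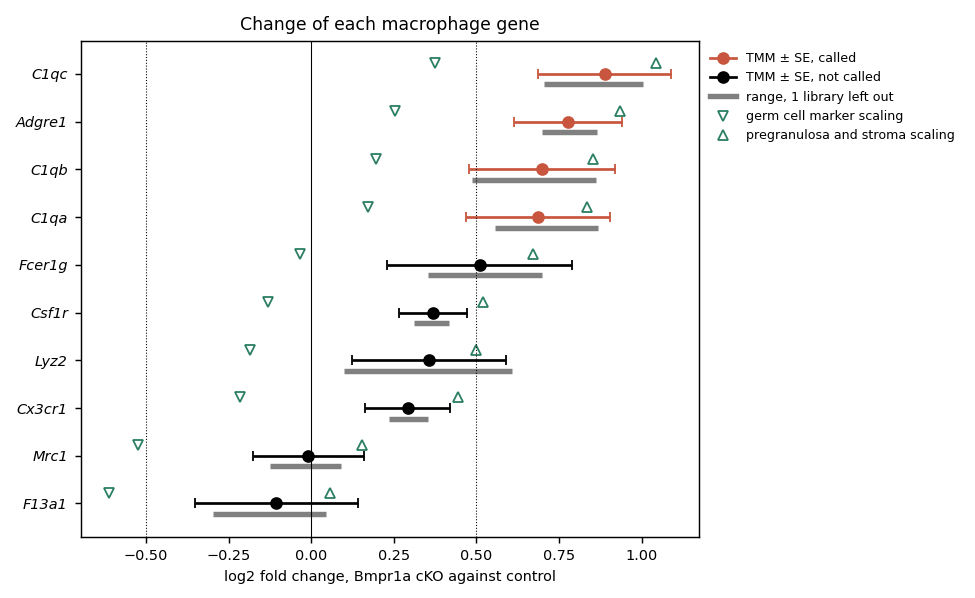
Log2FC (x axis, cKO over control) of each macrophage gene from edgeR with its SE, and the values from fits that left out 1 library or used another scaling. The values run from -0.11 for *F13a1* to 0.89 for *C1qc*, and the 4 called genes have the largest values. Scaling on germ cell markers moves all 10 genes to the left together.

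The direction of some of these genes depended on the scale against which a library was read. Libraries were also scaled on the summed counts of 8 germ cell markers, of which 4 were themselves called higher and 2 lower in the cKO. The most abundant of them, *Dazl*, was called higher, at a mean of 327 CPM in control and 506 CPM in cKO libraries. *Ddx4*, against which the paper normalised germ cell transcripts, was not called (log2FC 0.11, FDR = 0.561 by edgeR). With scaling on all 8 markers, the median log2FC of all genes moved from -0.004 to -0.50. On that scale none of the 4 calls held, at a log2FC of 0.37 for *C1qc* (FDR = 0.169 by edgeR), 0.25 for *Adgre1* (FDR = 0.356), 0.20 for *C1qb* (FDR = 0.451) and 0.17 for *C1qa* (FDR = 0.556). *Csf1r*, *Lyz2*, *Cx3cr1* and *Fcer1g* were then below 0, and *Mrc1* was called lower (log2FC -0.52, FDR = 0.0414 by edgeR). Relative to the median of all genes, *C1qc* was 0.87 higher on that scale and 0.89 higher on the main one, and *Csf1r* was 0.36 and 0.37 higher. A change of scale shifts all genes nearly alike, so these distances could hardly differ and are no check of the calls. Among the named genes of the pathway lists, the calls of *C3*, *C5ar1*, *Irf8*, *Tyrobp*, *Mpeg1*, *Coro1a* and *Sall1* were also lost on the germ cell scale, those of *Itgam*, *C3ar1*, *Ms4a7*, *Lyve1*, *Sall3* and *H2-Ab1* were kept, and *Runx1*, *Serping1*, *Igf1*, *Cx3cl1* and *Axl* were called lower. When libraries were scaled on pregranulosa and stroma markers, the median moved to 0.14 and *Csf1r* was called as well (log2FC 0.52, FDR = 0.00322 by edgeR). Of all genes called, 60.1% were higher in the cKO, compared with 4.15% on the germ cell scale and 81.6% on the pregranulosa and stroma scale.

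Levels can be compared between genes only per length, as RPKM, the CPM divided by the exon length in kilobases. In control ovaries *Lyz2* was highest at 7.42 ± 2.77 RPKM (SD, n = 4), followed by *C1qb* at 4.42 ± 1.53, *C1qa* at 2.72 ± 0.311 and *Csf1r* at 1.99 ± 0.178. *Fcer1g* (1.89), *C1qc* (1.87) and *Cx3cr1* (1.59) followed as mean RPKM. *Mrc1* (1.14) and *Adgre1* (1.09) came next, and *F13a1* was lowest at 0.363 RPKM. Of neighbours in this order, *C1qa* and *Csf1r*, *Cx3cr1* and *Mrc1*, and *Adgre1* and *F13a1* did not overlap over the 4 control libraries, whereas the other neighbours did. In cKO ovaries *Lyz2* (9.18 RPKM), *C1qb* (7.27) and *C1qa* (4.37) were again highest and *F13a1* (0.342) lowest. *C1qc* ranked 6 in control and 4 in cKO libraries, and *Adgre1* passed *Mrc1*, at 1.85 against 1.13 RPKM. Of neighbours in the cKO order, *Csf1r* and *Cx3cr1*, *Adgre1* and *Mrc1*, and *Mrc1* and *F13a1* did not overlap.

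The ratio of *Adgre1* to *Mrc1*, in CPM, was 0.545, 0.545, 0.449 and 0.436 in controls and 0.867, 0.76, 0.768 and 0.971 in cKO libraries, without overlap. The ratio of *C1qc* to *Mrc1* was 0.505 ± 0.0731 (SD, n = 4) in control and 0.921 ± 0.135 in cKO libraries, also without overlap. These ratios use the same values as the fold changes and were given no test of their own. Against *Csf1r*, by contrast, each of the other 9 genes overlapped between genotypes. For example, *Cx3cr1* to *Csf1r* was 0.622 ± 0.0539 in control and 0.587 ± 0.0626 in cKO libraries, *C1qc* to *Csf1r* was 0.314 ± 0.0402 and 0.447 ± 0.117, and *Mrc1* to *Csf1r* was 0.628 ± 0.0906 and 0.485 ± 0.099.

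**Figure D3:**
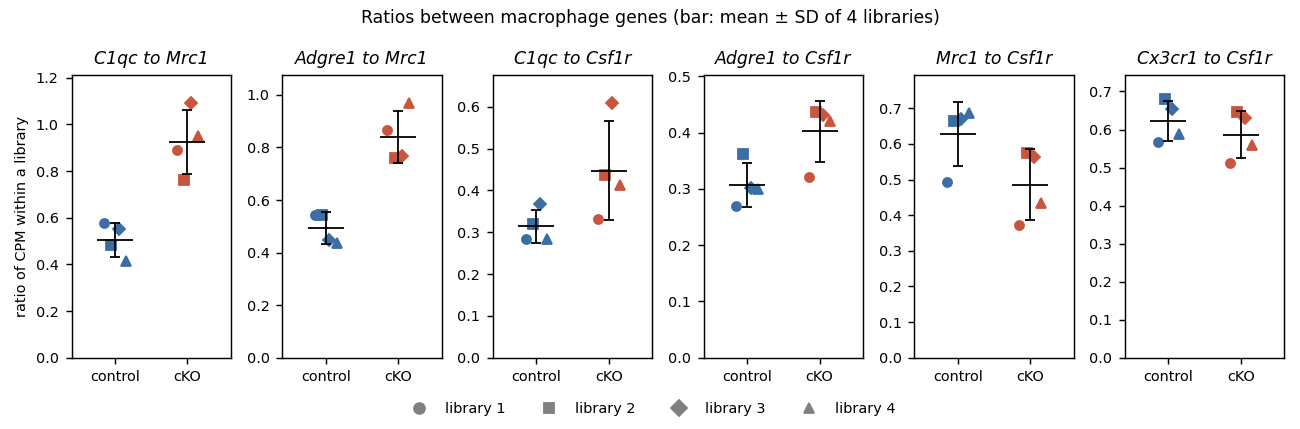
Ratios of CPM between macrophage genes (y axis of each panel, from 0) in each control and cKO library, with the mean ± SD of 4 libraries. *C1qc* to *Mrc1* and *Adgre1* to *Mrc1* separate the genotypes, at means of 0.505 against 0.921 and 0.494 against 0.841.

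Within a genotype the genes tended to be high or low in the same pools. Control 1 had the lowest control value for 7 of the 10 genes and control 3 the highest for 6. Among cKO libraries the lowest value was in library 1 for 6 genes and in library 2 for 4, and the highest in library 3 for 7 and in library 4 for 3. The summed level of the 10 genes was 48 to 65.4 CPM in control and 60.1 to 82 CPM in cKO libraries. As deviations from the genotype mean over the 8 libraries, *Adgre1* and *Fcer1g* correlated with r = 0.947, *Mrc1* and *Cx3cr1* with r = 0.908, *C1qc* and *Cx3cr1* with r = 0.903, and *Mrc1* and *F13a1* with r = 0.822, whereas *C1qb* and *Adgre1* had r = -0.206. These are descriptions over 8 libraries that share depth and scaling.

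**Figure D4:**
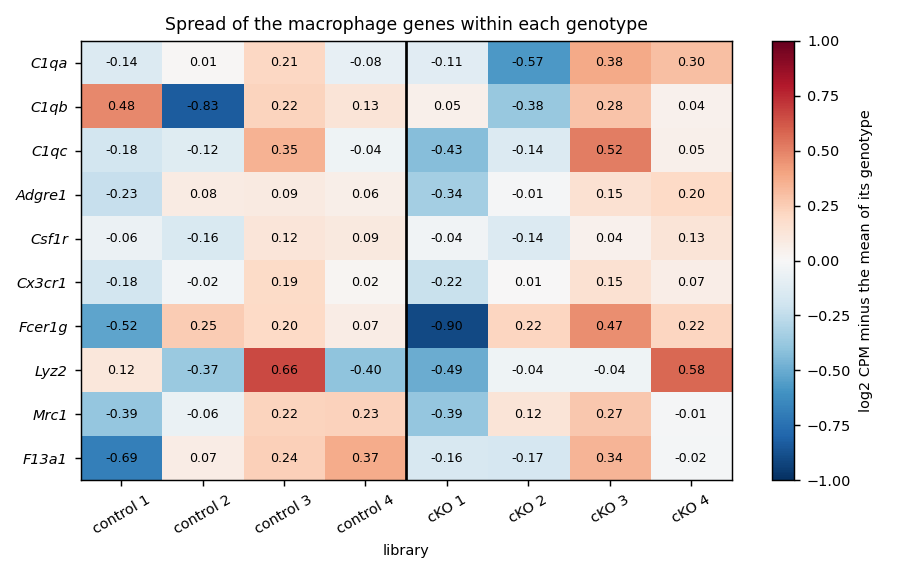
Deviation of log2 CPM from the mean of its genotype (colour and printed value) for each macrophage gene (rows) in each library (columns). Control 1 and cKO library 1 are mostly below 0, and control 3 and cKO library 3 are mostly above 0. The lowest values are those of *Fcer1g* in cKO library 1 and of *C1qb* in control 2.

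The spread between libraries was close to that of counting for some genes and well above it for others. The SD expected from counting was 22.1% of the mean for *Fcer1g* in controls, where 24.2% was observed, and 8.33% for *Csf1r*, where 8.99% was observed. For *Lyz2* the observed 37.3% exceeded the 9.2% from counting, and for *C1qb* the observed 34.6% exceeded 12.9%.

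The other genes of these pathways were examined by role. Of all genes tested, 6.11% were called higher and 4.06% lower, with a median log2FC of -0.004. Among the ligands and transcription factors of the CSF1R axis, 1 of 9 tested genes rose, none fell, and the median log2FC was -0.004. *Irf8*, a transcription factor of the myeloid lineage, was 2.6 ± 0.326 CPM (SD, n = 4) in control and 3.77 ± 0.633 CPM in cKO libraries (log2FC 0.57, FDR = 0.0324 by edgeR), and was no longer called in 4 of the 8 fits without a library or with DESeq2 (adjusted p = 0.0775). The ligand gene *Csf1* was at 4.31 ± 1.07 and 4.44 ± 0.678 CPM, and *Il34* at 2.08 ± 0.627 and 1.38 ± 0.337 CPM (FDR = 0.893 and 0.109 by edgeR). *Spi1*, which encodes PU.1, was at 1.56 ± 0.254 and 1.68 ± 0.609 CPM (FDR = 0.672 by edgeR). *Runx1*, the most abundant of the list and also a gene of pregranulosa cells, had a log2FC of -0.28 (FDR = 0.00808 by edgeR), under the fold threshold.

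Of the other complement genes, 4 of 11 tested rose and none fell (median log2FC 0.17). They were *C3*, the central component, the anaphylatoxin receptor genes *C3ar1* and *C5ar1*, and *Itgam*, the alpha chain of complement receptor 3 (CD11b). *Itgam* was at 1.64, 1.33, 1.59 and 1.39 CPM in controls and 7.03, 9.3, 9.74 and 11 CPM in cKO libraries. This 6.28-fold difference (log2FC 2.65, FDR = 1.28e-07 by edgeR) exceeded that of all 10 macrophage genes, while *Itgb2*, which encodes the beta chain with which CD11b pairs, was at 1.36 ± 0.149 and 1.25 ± 0.501 CPM (FDR = 0.908 by edgeR). The exons of *Itgam* overlap those of *Gm49368* on the same strand, so the reads of both cannot be told apart there. *C3ar1* was 2.28-fold higher (FDR = 0.000535 by edgeR) and *C3* 2.06-fold higher (FDR = 0.0113 by edgeR), both without overlap. *C5ar1*, at 4 to 25 counts, rose 1.98-fold (FDR = 0.0458 by edgeR) and was lost in 6 of 8 fits without a library, without the cKO libraries 1 and 3 together (FDR = 0.086 by edgeR) and with DESeq2 (adjusted p = 0.102). Its call was also lost with upper quartile scaling (FDR = 0.0522 by edgeR), library size scaling (FDR = 0.0558 by edgeR) and no low count filter (FDR = 0.0556 by edgeR). *C1ra*, the protease that is bound by C1q, was at 9.53 ± 0.312 CPM in control and 7.26 ± 1.16 CPM in cKO libraries (log2FC -0.40, FDR = 0.0308 by edgeR), and *Serping1*, which encodes the C1 inhibitor and was the most abundant of the list, had a log2FC of -0.20 (FDR = 0.12 by edgeR).

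General macrophage and lysosomal genes other than *Adgre1* and *Lyz2* had positive values for all 12 tested, of which 3 rose, and a median log2FC of 0.51. On the germ cell scale the most abundant of them, *Lgmn*, was below 0, *Mpeg1* (log2FC 0.38, FDR = 0.133 by edgeR) and *Coro1a* (log2FC 0.45, FDR = 0.0856) were no longer called, and *Ms4a7* still was (log2FC 0.96, FDR = 0.024). *Mpeg1*, which encodes perforin-2, rose 1.81-fold (FDR = 0.00225 by edgeR), *Coro1a*, an actin regulator of leukocytes, 1.96-fold (FDR = 0.000996 by edgeR), and *Ms4a7* 2.79-fold (FDR = 0.00399 by edgeR). *Lgmn*, a lysosomal protease, was 1.36-fold higher (FDR = 0.000149 by edgeR), under the fold threshold, and the pan-leukocyte gene *Ptprc* was at 2.01 ± 0.782 and 2.33 ± 0.284 CPM (FDR = 0.532 by edgeR). *Coro1a* overlaps exons of *Bola2* on the opposite strand.

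Among the Fc receptor and adaptor genes other than *Fcer1g*, 1 of 5 rose (median log2FC 0.17). It was *Tyrobp*, the DAP12 adaptor, at 1.15, 1.42, 1.22 and 1.2 CPM in controls and 0.954, 2.53, 3.66 and 2.52 CPM in cKO libraries (log2FC 0.98, FDR = 0.0241 by edgeR), and its call was lost in 5 of 8 fits without a library and with limma-voom (adjusted p = 0.0601). As with *Fcer1g*, cKO library 1 lay with the controls or below them. *Sirpa*, which encodes the receptor of the CD47 signal, had a log2FC of 0.23 (FDR = 0.0161 by edgeR).

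Genes of resident macrophages other than *Mrc1* and *F13a1* were mostly too low to test, with 4 of 12 tested. Of these 4, 2 had positive values, only *Lyve1* was called, and the median log2FC was 0.01. The scavenger receptor genes *Vsig4* and *Cd209f* were listed at 0 in every library, *Cd163* had at most 1 count and *Timd4* at most 2. *Lyve1*, which encodes a hyaluronan receptor of resident macrophages and lymphatic endothelium, was 0.247, 0.708, 0.375 and 0.316 CPM in controls and 3.34, 3.2, 6.07 and 4.91 CPM in cKO libraries. It rose 10.7-fold (log2FC 3.41, FDR = 2.97e-06 by edgeR), from as few as 3 counts, the floor. *Igf1*, the most abundant of the list, had a log2FC of -0.08 (FDR = 0.497 by edgeR).

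Of the genes listed with *Cx3cr1*, 1 of 4 tested rose and 1 fell (median log2FC -0.17). *Sall1*, a transcription factor of microglia and kidney, was 1.44-fold higher (log2FC 0.53, FDR = 0.0193 by edgeR). Its call was lost in 4 of 8 fits without a library, without the cKO libraries 1 and 3 together (log2FC 0.42, FDR = 0.123 by edgeR), and with upper quartile (log2FC 0.49) or library size scaling (log2FC 0.47). *Sall3*, its paralogue, was at 9.0 ± 2.3 CPM in control and 4.7 ± 0.873 CPM in cKO libraries (FDR = 0.00168 by edgeR). The ligand gene *Cx3cl1* had a log2FC of -0.24 (FDR = 0.129 by edgeR). None of the 12 receptor and bridging genes of apoptotic cell uptake that were tested was called (median log2FC -0.14), although *Gas6*, *Mertk*, *Tyro3* and *Itgb5* had an FDR below 0.05 with a lower level. *Gas6*, the ligand of the TAM receptors, was at 324 ± 9.38 and 253 ± 32.2 CPM (log2FC -0.36, FDR = 0.00239 by edgeR), and *Axl*, the most abundant, had a log2FC of -0.15 (FDR = 0.122 by edgeR).

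Monocyte genes were called in 0 of 3 tested, with *Fn1* at a log2FC of 0.27 (FDR = 0.0168 by edgeR), and chemokines in 0 of 2, with *Cxcl12* at 0.12 (FDR = 0.444 by edgeR). Of the MHC class II genes 3 of 7 were tested and 1 fell. *H2-Ab1* was at 6.25, 3.28, 5.71 and 6.94 CPM in controls and at 0.596, 1.04, 1.67 and 1.71 CPM in cKO libraries (log2FC -2.11, FDR = 6.63e-05 by edgeR). It moved in the direction opposite to that of the C1q genes, without overlap. The other 2 tested genes had positive values and were not called, and the median log2FC of the 3 was 0.48.

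**Figure D5:**
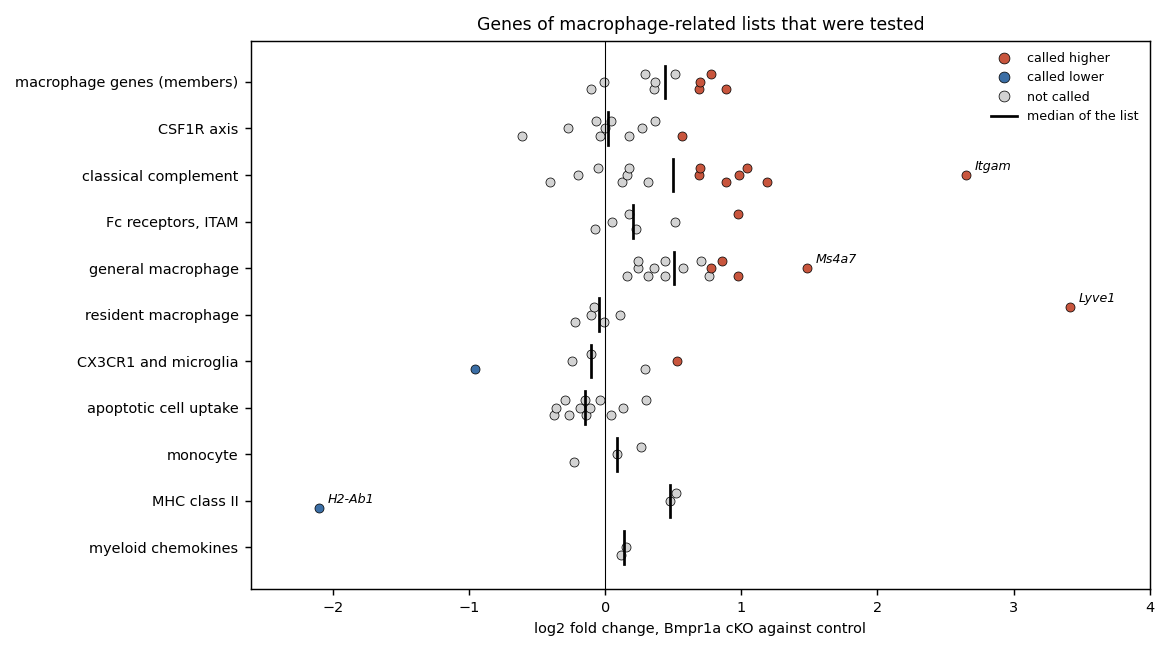
Log2FC (cKO over control) of each tested gene of the macrophage-related lists, one list per row group, with called genes marked. *Lyve1* (3.41) and *Itgam* (2.65) are the highest and *H2-Ab1* (-2.11) the lowest.

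Markers of other cell types were read beside these values. None of 7 tested granulocyte markers, 3 megakaryocyte, 6 erythroid, 7 endothelial or 7 stromal markers was called, and no lymphoid marker was abundant enough to test. Of the 4 mast cell markers tested *Cma1* fell (log2FC -1.14, FDR = 0.0143 by edgeR). *Hdc*, the most abundant of them, was higher but under the fold threshold (log2FC 0.48, FDR = 0.0299 by edgeR), and the median was -0.82. The summed level of the 7 markers was 13.8 to 23.8 CPM in control and 9.63 to 16.7 CPM in cKO libraries. Of 8 germ cell markers *Dazl*, *Dppa3*, *Dnd1* and *Kit* rose and *Mael* and *Tdrd9* fell, and their summed level was 615 to 834 and 753 to 1150 CPM. Of 8 pregranulosa markers *Foxl2* fell and 7 had an FDR below 0.05 with a lower level, with sums of 1360 to 1620 and 1150 to 1370 CPM. Of 5 mesonephros markers tested *Gata3* fell. Of the 7 hepatocyte markers, *Alb* and *Afp* were tested and both rose (FDR = 0.0157 and 0.00205 by edgeR), and their level was highest in cKO libraries 3 and 1. Of these markers the hepatocyte sum was the one in which every cKO library exceeded every control. Among the macrophage-related lists the sums of general macrophage genes (145 to 168 against 109 to 123 CPM), complement genes (95 to 106 against 74.7 to 84.8 CPM) and Fc receptor and adaptor genes (99.7 to 110 against 85.8 to 97.2 CPM) did so too. These sums include genes of the 10. In the general list *Lgmn* alone averaged 43.6 CPM in control and 59.2 CPM in cKO libraries. Most of the Fc receptor and adaptor sum was *Sirpa* (mean 53.4 and 62.6 CPM) and *Syk* (29.8 and 31 CPM), which are not Fc receptors. The Fc receptor genes *Fcgr2b* (log2FC -0.08, FDR = 0.871 by edgeR) and *Fcgr3* (log2FC 0.17, FDR = 0.576 by edgeR) were tested and not called. The part of any of these cell types in the macrophage gene levels was not tested.

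The genes whose pattern over the 8 libraries was most like that of the macrophage genes were found by correlating log2 CPM with the mean of their standardised levels. Of 13966 genes ranked, 84 had r of at least 0.9, and none of these was from the lists above. The 10 most alike were *Fzd6* (r = 0.982), *Nup93* (r = 0.978), *Plk4* (r = 0.969), *Pla2g7* (r = 0.967), *Zmym4* (r = 0.959), *Anapc2* and *Acsf2* (both r = 0.958), *Mrpl58* (r = 0.952), and *Rhox2a* and *Ska3* (both r = 0.946). Among them *Fzd6* and *Rhox2a* were called higher in the cKO. Ranking by deviations from the genotype means kept 3 of the 10. With this many genes and 8 libraries, such values describe likeness only.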

How the data were processed

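The authors trimmed the reads with Trimmomatic 0.39, checked them with FastQC 0.11.9 and mapped them to mm10 with STAR 2.5.2, per the labels and the processing notes of the submitters. They deposited, for each library, unnormalized counts of reads per gene symbol. The annotation and strand setting of the counting are not given in the sources used here, although the kit was strand-specific, so overlapping genes on either strand may share reads. The authors also deposited a signal table of 14244 genes, counts scaled by 1 factor per library, whose gene set served as an alternative filter (14189 of its genes were tested here).

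Counts were analysed in R 4.3.3 with edgeR 4.0.16 (filterByExpr by genotype, TMM scaling, quasi-likelihood F test, two-sided), with FDR by Benjamini and Hochberg across the 14249 genes that passed the filter. SE was the log2FC divided by the root of F. CPM used TMM-scaled library sizes, log2 CPM a prior count of 2, and RPKM the union exon length of GENCODE vM21. Promoters were those of RefSeq on GRCm38.p6. Floors and counting errors cover counting only. limma 3.58.1 (voom) and DESeq2 1.42.0, other scalings, filters and thresholds, the replicate number as a block and each library left out were alternatives. The procedure was tested on simulated data. No library was left out of the comparison.

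The macrophage genes, the gene lists and the alternatives were chosen with earlier results of these data known. Some listed genes are not reported here and were left out of the lists and their counts. Genes named beyond the 10 are those called in the lists, the most abundant tested gene of each macrophage-related list, and the 10 most alike. *Csf1*, *Il34*, *Spi1*, *Itgb2*, *C1ra*, *Ptprc*, *Gas6*, *Mertk*, *Tyro3*, *Itgb5*, *Vsig4*, *Cd209f*, *Cd163*, *Timd4*, *Hdc*, *Ddx4*, *Syk*, *Fcgr2b* and *Fcgr3* were added after their values were seen, as partners or defining markers.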

Additional observations from a re-analysis of the deposited data

Results flagged for a closer look

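In 1 of 20 sets of 4 libraries (10 genes in 2 genotypes), a library lay far from the other 3. *Adgre1* was at 2.96 CPM in control 1, and its gap to the nearest control was 0.891 of the range of the 4 controls. Chance flags about 1 in 20 such sets. Control 1 also had the lowest control value for 6 other genes of the 10.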

How the results depend on the processing

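*C1qa*, *C1qb*, *C1qc* and *Adgre1* were the genes called under the likelihood ratio test, limma-voom, DESeq2, RLE, upper quartile or library size scaling, all 3 other filters and without *Rn45s*. The replicate numbers were not treated as pairs, as no label says that they mark a litter. The r of deviations between same-numbered libraries was -0.0871 to 0.198, and 5 of 8 correlated best with their own number. These values do not decide whether the numbers pair the libraries. With the replicate number as a block the same 4 of 10 and 1457 of all genes were called, against 1449. Leaving out each library gave 2 to 5 called macrophage genes and 1288 to 1627 called genes in all, and leaving out cKO libraries 1 and 3 together, chosen after seeing the data, gave 2 and 1556, with *Mrc1* at 0.005. An absolute log2FC above 1 gave 0 of 10 and 501 in all, and FDR alone 5 and 4242. Germ cell scaling gave 1 (*Mrc1*, lower) and 6898, and turned the log2FC of *Csf1r* (-0.13), *Lyz2* (-0.19), *Cx3cr1* (-0.22), *Fcer1g* (-0.033), *Sirpa* (-0.26), *Lgmn* (-0.046), *Fn1* (-0.21) and *Cxcl12* (-0.38). Pregranulosa and stroma scaling turned *Mrc1* (0.15), *F13a1* (0.057) and *Igf1* (0.061). *Mrc1* ranged from -0.12 to 0.089 and *F13a1* from -0.30 to 0.044 without single libraries. The share of calls that were higher was 53.7% with upper quartile scaling, 50.8% with library size alone and 60.1% in the fit reported. The cause of these changes with scaling or single libraries was not tested. At 9 to 256 counts per gene and library, the SE of the log2FC was from 0.103 for *Csf1r* to 0.28 for *Fcer1g*.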
